A study of Drosophila melanogaster with 3 samples.

Results

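Between the genes of Drosophila, 613 of the 6485 Spalt-related (salr) peaks kept by the IDR step (9.45%) had their summit more than 1000 and up to 5000 bp from the nearest annotated start site and inside no annotated gene. IDR, the irreproducible discovery rate, keeps peaks whose ranks are shared by replicates. These intergenic peaks, called members here, were chosen by position alone, with genes and start sites from the Ensembl annotation of the Release 6 genome (dm6) and transposable elements left out. ChIP-seq was run on whole Drosophila melanogaster prepupae of mixed sex, pooled, with their age recorded as unknown. All libraries came from 1 transgenic line that stably expresses salr fused to GFP at its C-terminal end, and sonicated chromatin was pulled down with anti-GFP. The study gave 3 biological replicates of this single group, so no condition is compared with another, and no untagged line is used here. Whole animals mix all tissues, so binding in few cells and weak binding in many cannot be told apart.

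The gene salr encodes a zinc-finger transcription factor of the Spalt family. It lies next to its paralogue spalt major (salm) on arm 2L, and both are known for patterning the wing downstream of Dpp and for roles in the trachea, sense organs and flight muscle. Sequence a few kilobases from a start site often holds enhancers, stretches of DNA that bind transcription factors and act on a promoter at a distance. The nearest gene need not be the gene acted on, so gene names below give positions only.

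The sequences under the strongest of these summits are shown first, because they show the base composition and the words that the counts further on refer to. Each stretch holds the summit base and 50 bases on either side of it in the RefSeq Release 6 genome (dm6, plus strand), at 1 of the 10 strongest members that all 3 replicates hold and that lie on the arms 2L, 3L, 3R and X. Each is named by the gene with the nearest start site, and a repeated name marks neighbouring summits by the same gene. Capitals mark AGATAA or its complement, a word bound by GATA factors, and AGTGCA or its complement.
CG31668 (chr2L:2202372-2202472): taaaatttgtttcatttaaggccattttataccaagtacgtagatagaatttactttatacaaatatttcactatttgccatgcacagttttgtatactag
CG43245 (chr3L:10776535-10776635): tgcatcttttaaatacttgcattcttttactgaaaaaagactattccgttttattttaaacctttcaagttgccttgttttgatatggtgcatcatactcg
COX7AL2 (chr2L:2201181-2201281): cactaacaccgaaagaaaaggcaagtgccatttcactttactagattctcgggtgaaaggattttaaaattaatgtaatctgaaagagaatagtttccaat
lncRNA:CR45643 (chr3R:16222095-16222195): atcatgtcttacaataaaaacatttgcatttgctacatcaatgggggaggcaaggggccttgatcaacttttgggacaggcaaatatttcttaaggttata
lncRNA:CR45643 (chr3R:16221811-16221911): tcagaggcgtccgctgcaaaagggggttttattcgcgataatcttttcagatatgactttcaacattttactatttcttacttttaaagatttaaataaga
COX7AL2 (chr2L:2199313-2199413): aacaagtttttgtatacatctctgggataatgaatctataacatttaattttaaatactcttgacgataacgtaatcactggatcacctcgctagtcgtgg
fz (chr3L:14272524-14272624): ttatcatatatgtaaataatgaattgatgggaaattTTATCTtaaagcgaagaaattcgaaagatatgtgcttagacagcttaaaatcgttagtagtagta
ct (chrX:7604637-7604737): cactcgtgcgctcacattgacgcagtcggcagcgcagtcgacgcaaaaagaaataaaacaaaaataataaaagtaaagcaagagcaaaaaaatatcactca
E(spl)malpha-BFM (chr3R:26009036-26009136): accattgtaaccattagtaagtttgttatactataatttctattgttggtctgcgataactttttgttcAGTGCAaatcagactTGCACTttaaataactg
CG43131 (chr3R:5113234-5113334): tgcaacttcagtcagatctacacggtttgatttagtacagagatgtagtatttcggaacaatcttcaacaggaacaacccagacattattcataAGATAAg
The GC content of these stretches lay between 26.7% by CG31668 and fz and 39.6% by ct. The E(spl)malpha-BFM summit had AGTGCA on both strands, the fz and CG43131 summits had 1 GATA word each, and the other stretches had neither word.

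The strongest member lay in the 5808-bp gap between COX7AL2, a cytochrome c oxidase subunit 7A-like gene, and CG31668 (FBgn0051668) on 2L, at 2202149 to 2202639 with its summit 3744 bp from the CG31668 start. Its signal value, a score by which the authors' lists rank peaks, was 1591 in the IDR list. It had 704, 498 and 391 in replicates 1, 2 and 3, where it ranked 10, 11 and 12. Scores of different replicates are on different scales, so ranks are compared below. The same gap held 5 members, all of its IDR peaks. A further pair among the strongest, nearest to COX7AL2 (summits 2201231 and 2199363, signal values 939 and 855), ranked 41, 75 and 281 and then 159, 81 and 128. The first of these was weaker in replicate 3 than in the other replicates, and the second varied less.

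Next came a summit at 2R 22678413, 4718 bp from lncRNA:CR44761 (FBgn0265982), a long noncoding RNA gene, with a signal value of 1140 and ranks of 58, 51 and 17. The closest protein-coding start, 7648 bp away, was that of RYBP, which encodes a partner of Polycomb group proteins. CG43245 on 3L (summit 10776585, signal value 973) ranked 66, 92 and 63. A pair of summits 284 bp apart on 3R, 16222145 and 16221861, lay nearest to lncRNA:CR45643. The nearest coding start, 3506 and 3790 bp away, was that of tara (taranis), a regulator of transcription and the cell cycle. They had signal values of 916 and 888 and ranked 50, 58 and 679 and then 70, 57 and 328, so replicate 3 stood well below the others at both. The pair shares its surroundings and is not independent.

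Several strong members lay by genes of signalling and patterning. One at 1769 bp upstream of fz (FBgn0001085), which encodes the Wnt and planar polarity receptor Frizzled, had its summit at 3L 14272574, a signal value of 773 and ranks of 162, 183 and 162. A weaker one lay 222 bp away (signal value 203, ranks 862, 2559 and 1826). The member 3741 bp upstream of ct (FBgn0004198), the homeodomain gene cut, had its summit at X 7604687, a signal value of 754 and ranks of 237, 241 and 119. That at E(spl)malpha-BFM (FBgn0002732), a Bearded-family gene of the Enhancer of split complex and a Notch target, lay at 3R 26009086, 1807 bp upstream, with a signal value of 736 and ranks of 206, 240 and 150. By foxo (FBgn0038197), the forkhead factor of the insulin pathway, the summit at 3R 14052308 lay 4637 bp upstream, with a signal value of 598 and ranks of 464, 319 and 270. By the bZIP factor gene Atf3 (FBgn0028550), the summit at X 1277210 had a signal value of 598 and ranks of 283, 582 and 401. Replicate 2 gave the lowest of the 3 ranks at fz, ct, E(spl)malpha-BFM and Atf3, and replicate 1 at foxo.

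The rest of the 20 strongest had signal values of 580 to 735. They lay nearest to CG43131, the gustatory receptor gene Gr93d, CG12984, asRNA:CR43891, the spermatid gene soti, CG8635, CG33467 and the F-box gene Fbxl7. Every replicate held all 20 within 100 bp of a summit of its 6485 best peaks, and no rank was below 464, 656 and 793 in replicates 1, 2 and 3. Of the 20, 17 lay upstream of the nearest start, 4 had a noncoding gene nearest, and 8 were on 3R, 4 on 3L, 3 on 2L, 3 on 2R and 2 on X. As the signal value chose these 20, their ranks are a description.

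**Figure D1:**
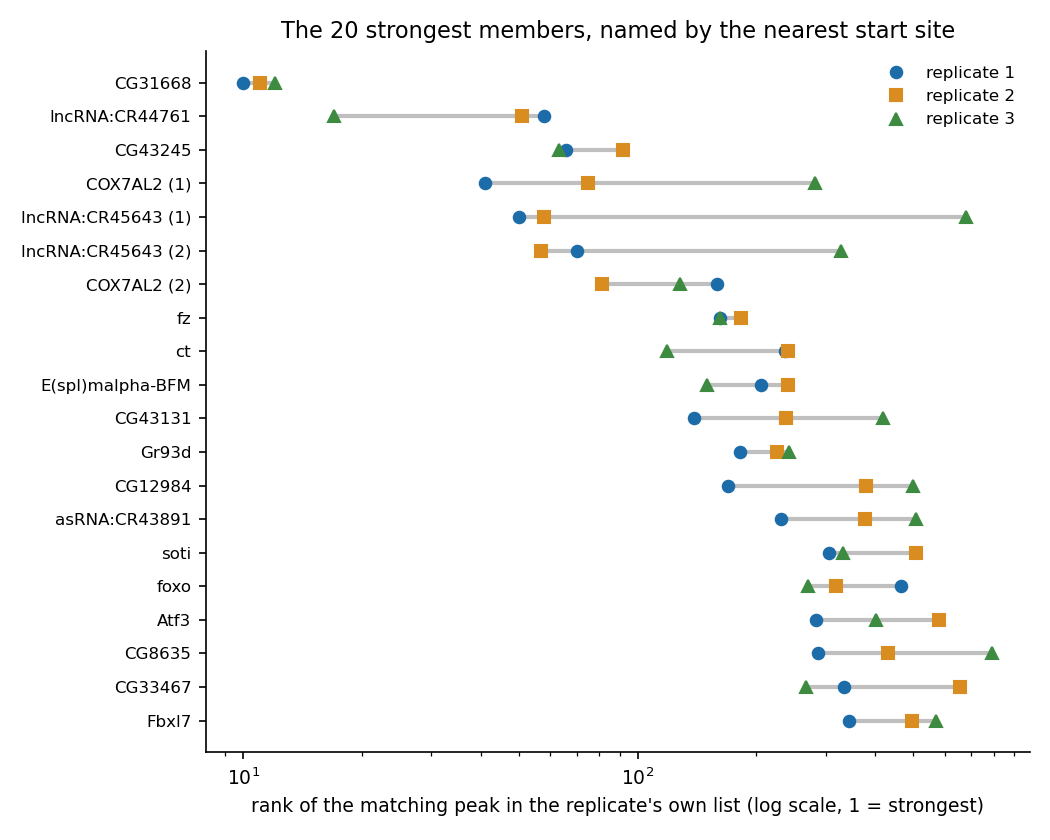
Ranks of the 20 strongest members in the 3 replicates (log axis), ordered by signal value in the IDR list and named by the nearest start site. The summit nearest to CG31668 ranked 10, 11 and 12, while both summits by lncRNA:CR45643 ranked lowest in replicate 3, at 679 and 328.

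The members were not spread evenly over the chromosomes. Per Mb of the sequence that fits the position rule (13.5 Mb, 10.1% of the 6 arms, called eligible below), 3L held 75.9 members (219 in 2.88 Mb), 3R 42.9 (139), 2L 39.5 (118), 2R 38.5 (91), X 22.3 (44) and chromosome 4, the small dot chromosome, 21.8 (2). The best 6485 peaks of each replicate gave 72.8 ± 0.917 per Mb on 3L (SD, n = 3 here and below), 41.7 ± 0.942 on 3R, 35.7 ± 0.967 on 2L, 38.0 ± 2.59 on 2R and 21.5 ± 3.45 on X. Thus 3L stood above every other arm in all 3 replicates. The replicate values of 2L and 2R overlapped, and those of 3R lay above both. Chromosome 4 gave 18.1 ± 6.28 from 1 or 2 members, too few to place against X.

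The density on 3L was 2.05 times that of the other arms, and 2.05, 2.10 and 2.05 times in the replicates (exact two-sided sign-flip permutation test over replicates, p = 0.25, the smallest that 3 replicates can give, so no such test here can pass the usual threshold). That on X was 0.454 times the other arms, and 0.547, 0.428 and 0.398 times in the replicates (exact permutation test, p = 0.25). For all IDR peaks per Mb of arm the ratios were 1.15 for 3L and 1.03 for X. For peaks at the same distance inside a gene span they were 1.12 and 1.18, and for intergenic peaks beyond 5000 bp 1.48 and 0.386. Members made up 14.4% of the IDR peaks of 3L and 3.77% of those of X. Without runs of 10 or more members, described next, the 3L ratio was 1.62. That drop is built in, as the runs were defined from these same members and most lay on 3L. With protein-coding genes alone as the annotation the ratio was 1.54. Both alternatives were chosen after seeing the data.

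**Figure D2:**
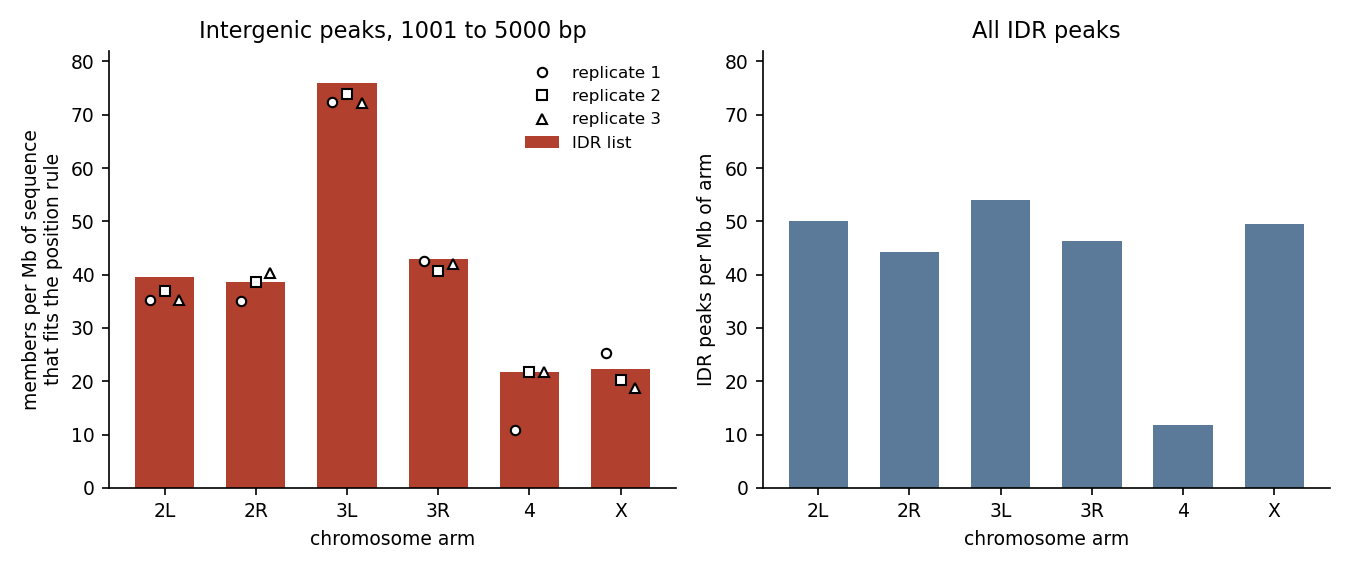
Left, members per Mb of sequence that fits the position rule on each chromosome arm, as bars for the IDR list and points for the 3 replicates. Right, all IDR peaks per Mb of whole arm, where 3L reaches 54.04 and X 49.6, so the spread over these arms is narrower than that of the members, at 75.9 and 22.3.

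Some of the members on 3L sat in a few dense runs, and an arm with more members per Mb is likely to give more such runs. When members within 25 kb of each other were joined, 8 runs of 10 or more held 16.5% of the members, and 5 of these runs, with 63 members, were on 3L. Of 23 runs of 5 or more, 13 were on 3L and 0 on X. The largest, 123.7 kb at 3L 11256481 to 11380202, held 19 members beginning beside scyl (scylla), and 10 more lay in a run that ended by chrb (charybde). Both genes encode REDD1-like inhibitors of TOR signalling. Over the whole stretch of 229.7 kb, 29 of 51 IDR peaks were members, 16 had support in all 3 replicates, and the replicates gave 27, 28 and 25. The strongest in the larger run had a signal value of 458, and their median was 207.

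The other large runs were on 3 arms and differed in length. Around CheA75a, a gene of a family expressed in chemosensory organs, 12 members lay within 18.5 kb (3L 18232406 to 18250911), 9 of them found in all 3 replicates, with 11, 14 and 11 in the replicates. Runs from CASK to lsn on 3R (14 members), noc to osp on 2L (12) and CG5151 to l(3)72Dn on 3L (12) had 6, 9 and 5 members in all 3 replicates. CASK encodes a synaptic scaffold kinase and noc a zinc-finger protein of head and appendage development. That from Dip-B to E5 on 3R had 12 members but 3 in all replicates. Its support was the lowest of the 8 large runs.

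Single gaps between neighbouring genes held up to 6 members. Those with 6 were CR33283 to CG12984 (strongest signal value 671), lncRNA:CR45937 to lncRNA:CR45936 (508) and CG17154 to vers (368), all on 3L. Those with 5 were COX7AL2 to CG31668, lncRNA:CR45641 to lncRNA:CR45643 (916), dls to CG13073 (624), lncRNA:CR45632 to Gr93a (306) and tRNA:Ile-TAT-1-2 to CG13898 (296). Gaps with 4 were led by soti to cv-c (606) and CG8635 to ptc (583), where ptc encodes the Hedgehog receptor Patched. Members occurred in 399 of the 4643 gaps that hold eligible sequence (8.59%), 1 each in 261 of them, 2 in 91 and 3 or more in 47. These 47 gaps held 170 members (27.7%). Gaps with a member had a median length of 7366 bp, against 3196 bp for all eligible gaps. Longer gaps can hold more eligible bases, so this contrast follows in part from the position rule and is a description. With 152 members having another IDR summit within 500 bp, summits joined at that distance left 542 runs.

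The gene of the tagged protein lay beside such a group. Between salr and salm, 5 members stood at 2L 11387537 to 11396839, with lncRNA:CR43681 nearest and salr the nearest coding start, 22248 bp or more away. The strongest of them (summit 11396621) had a signal value of 233 and ranks of 2603, 2494 and 2318, so it was well down each list but at a like rank in all. It was the only one of the 5 with support in all 3 replicates, which gave 4, 3 and 3 members in this stretch.

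Closer to the start site, members were denser. The band of 1000 to 1500 bp held 141 members, or 58.3 per Mb of sequence in that band, and 1500 to 2000 bp held 106 (49.4 per Mb). Beyond these, 2000 to 3000 bp held 142 (39.0 per Mb), 3000 to 4000 bp 122 (41.7 per Mb) and 4000 to 5000 bp 102 (42.5 per Mb). In the replicates the bands had 56.1 ± 0.239, 46.5 ± 0.970, 37.8 ± 2.34, 39.7 ± 1.54 and 40.1 ± 1.73 per Mb. The first band was above the second, and both were above the other 3, in every replicate, while the outer bands overlapped. Upstream of the nearest start lay 407 members (66.4%, replicates 67.0% ± 1.17), against 60.9% of the eligible bases. In order of distance, 80.1%, 73.6%, 58.5%, 55.7% and 63.7% of the members in the 5 bands were upstream, against 69.5%, 64.05%, 59.6%, 57.1% and 55.8% of the eligible bases of those bands. The members were thus above the bases in the nearest bands and in the outermost, and slightly below them between 2000 and 4000 bp. Between divergent genes the density was 50.2 per Mb (172 members), against 44.6 between tandem genes (314) and 41.9 between convergent ones (127).

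**Figure D3:**
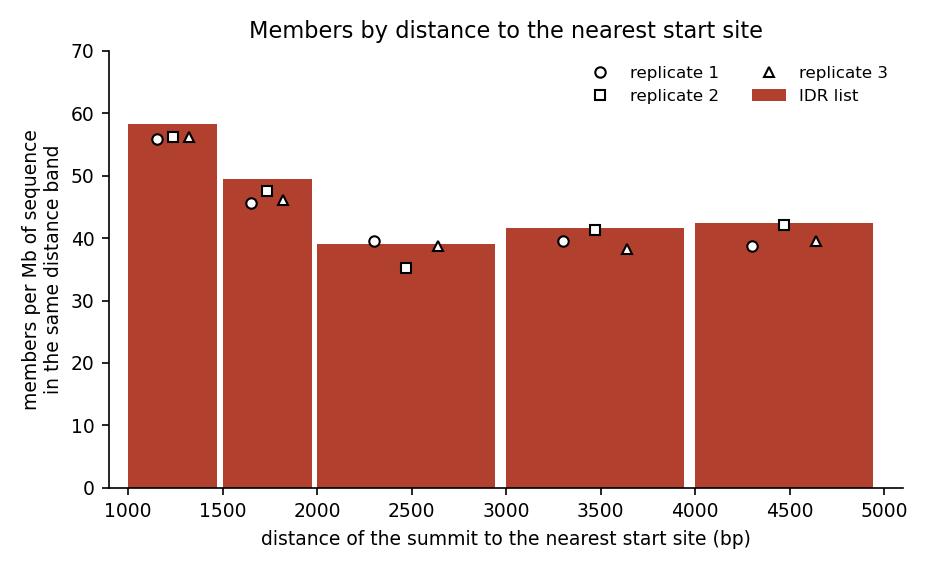
Members per Mb of eligible sequence in 5 bands of distance to the nearest start site, with bars for the IDR list and points for the replicates. Density was 58.3 per Mb in the nearest band, 49.4 in the next, and between 39.0 and 42.5 per Mb beyond.

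At the bounds of the rule, the summits just inside the nearer bound lay 1002 bp from lncRNA:CR44513 (signal value 290) and 1004 bp from CG33080 (132). Those just outside lay 998 bp from MESR6 (134) and 989 bp from Cad89D (342). Near 5000 bp the last inside were by cv-c (5000 bp, 157) and Lip4 (4998 bp, 130), and the first outside by Tollo (5002 bp, 355) and lncRNA:CR46197 (5025 bp, 183).

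Taking all arms, the members' density was 45.3 per Mb, against 48.4 per Mb for all IDR peaks over the arms, a ratio of 0.935 (replicates 0.893 ± 0.00384, exact permutation test, p = 0.25). The ratio turned to 1.04 when protein-coding genes alone defined spans and start sites. The same distance inside gene spans had 44.2 per Mb (1564 peaks). Intergenic sequence beyond 5000 bp had 20.2 per Mb (406) and the zone 250 to 1000 bp from a start 72.5 per Mb (1563). In the replicates the ratio to all peaks was 0.884 ± 0.0280 within genes at that distance, which overlaps the members, 0.400 ± 0.00830 beyond 5000 bp and 1.48 ± 0.0637 in the nearer zone.

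Signal values of the members spanned 116 to 1591 with a median of 178, against a median of 197 for the other 5872 IDR peaks. In the replicates' own lists their median ranks were 3709.5, 3689.5 and 3607, against 3202, 3198 and 3201.5 for the other best-ranked peaks. The mean difference was 468.2 ± 54.9 places (exact permutation test, p = 0.25), with the peaks that fit the rule lower in 3 of 3 replicates. The difference in median signal value, −19.5, was −10.3 with protein-coding genes alone and −11.5 without replicate 1. The share of members grew down the list, with 6.79% in the strongest quintile of IDR peaks, then 9.33%, 8.94% and 10.3%, and 11.9% in the weakest. The strongest minus the weakest quintile was −3.78, −3.55 and −4.01 percentage points in replicates 1, 2 and 3 (mean −3.78 ± 0.231, exact permutation test, p = 0.25).

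**Figure D4:**
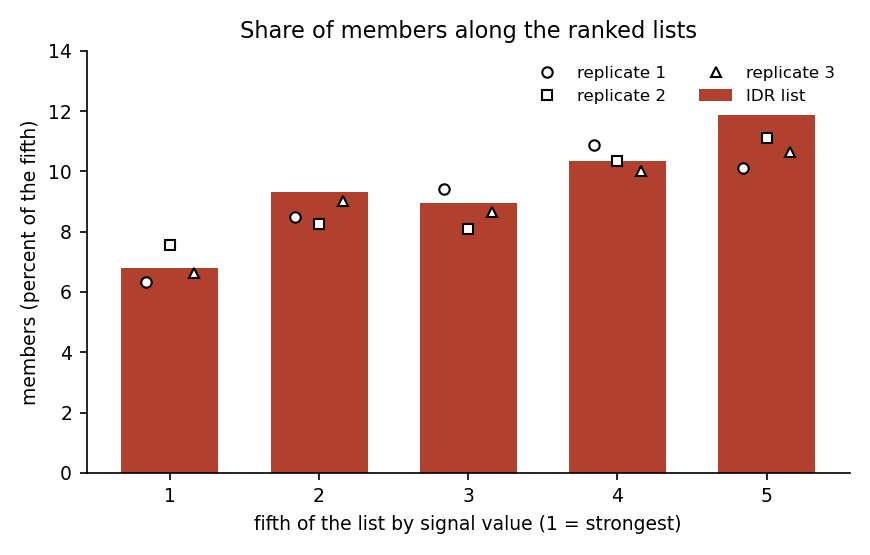
Members as a percentage of each quintile of the IDR list (bars) and of each replicate's best 6485 peaks (points), ordered by signal value with 1 the strongest. The share in the IDR list was 6.79% in the strongest quintile and 11.9% in the weakest, and every replicate had a lower share in its strongest quintile than in its weakest.

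All 3 replicates held a summit within 100 bp for 304 members (49.6%), while the share over all IDR peaks was 55.2%. A further 172 members were found in 2 replicates, 126 in 1 and 11 (1.79%) in none. By replicate, 81.7%, 75.04% and 68.7% of members had support in replicates 1, 2 and 3, against 83.3%, 79.2% and 74.2% of other IDR peaks. The differences were −1.56, −4.20 and −5.56 points (mean −3.77 ± 2.03, exact permutation test, p = 0.25). They shrank to a mean of −1.22 when all entries of each replicate's list were searched and to −1.54 with protein-coding genes alone. At matched signal the gap was smaller and had no fixed direction. In the strongest quintile, 92.1% of members and 93.0% of other peaks were found in all 3 replicates, in the second 86.8% and 83.9%, in the middle 64.7% and 66.7%, in the fourth 27.6% and 29.8%, and in the weakest 3.90% and 2.80%.

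Noncoding genes were often the closest neighbour. For 376 members (61.3%) the nearest start belonged to a protein-coding gene, for 210 (34.3%) to a noncoding RNA gene and for 21 (3.43%) to a tRNA gene. Together the noncoding kinds took 38.7% of members, against 33.2% of eligible bases. The median distance to the nearest start was 2374 bp, and to the nearest coding start 3518 bp. The coding genes with most members were CheA75a (12), Reg-2 (9), CG6163 (8), hng3 (7) and Ids (6), all on 3L. Many of these members had a noncoding start nearer, such as those 19682 bp from CheA75a and 20554 bp from Reg-2.

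For 379 of 13945 protein-coding genes (2.72%) a start site was the nearest coding one to a member, and against this share the pathway lists were read. Where a noncoding start is nearer, that coding start can lie more than 5000 bp away. Genes of growth control and JAK-STAT signalling were near members more often than this, with 6 of 17 (35.3%, replicates 31.4% ± 3.40). They had 184 members per Mb of the eligible sequence that lies nearest to them. Only 8 of the 17 have such sequence, while the 2.72% counts all coding genes, with or without it. The lists were also chosen with earlier results of these data known, so the excess is a description. By ex, which encodes the Hippo pathway scaffold Expanded, the stronger of 2 members (2L 427562, 3665 bp upstream) had a signal value of 453 and ranks of 541, 812 and 1180. The one by ft, the gene of the cadherin Fat (2L 4223097, 1301 bp upstream), had 360 and ranks of 1475, 1077 and 906. Others lay by upd3 (242) and upd1 (175), which encode JAK-STAT ligands, by fj (158), which encodes a Golgi kinase that acts on Fat and Dachsous, and by ds (129), which encodes Dachsous. The upd1 and fj members were 14033 and 9393 bp from those starts, with a noncoding RNA start nearer. By the nearest start of any kind, 4 of the 17 genes had a member. Of the 6 genes by nearest coding start, 5 had a member found in all 3 replicates.

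Ecdysone response genes, which act in metamorphosis, had members by 5 of 21 (23.8%, replicates 25.4% ± 5.499, 199 per Mb). The cell death gene hid had the strongest (3L 18190637, 4996 bp upstream, signal value 510, ranks 726, 406 and 454). The nuclear receptor gene Eip78C followed (3L 21224501, 405, ranks 806, 1194 and 1209). Blimp-1, a zinc-finger repressor gene of prepupal timing, had 221, the cell death gene rpr 219 and the nuclear receptor gene Hr38 122. Of these 5 genes, 3 had a member found in all 3 replicates. No rpr member was found in all 3, and replicate 1 held neither Hr38 member. The density of this list counts the pair of rpr summits, 210 bp apart, as separate members. The ranks at hid and Eip78C were of similar order in the 3 replicates. Since hid and rpr are also the 2 of 10 cell death regulators with a member, these lists are not independent.

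In the Dpp and BMP pathway, 3 of 15 genes had a member (20%, 157 per Mb). They were dpp (350), the ligand gene, Dad (293), which encodes an inhibitory Smad, and dally (249), which encodes a glypican, and the replicates gave 20% ± 0. The dpp member at 2L 2426643 ranked 1824, 1065 and 886. The Dad one at 3R 17052965, 1042 bp upstream, ranked 2103, 1920 and 1607, and that by dally at 3L 8824156 ranked 3684, 1664 and 2587. Wing patterning genes had 4 of 25 (16%, 83.9 per Mb), with dpp again, salr (233), ptc (198) and ab (120), a BTB zinc-finger gene. In the Wnt list, 2 of 15 had one, fz (773) and nkd (181), a feedback inhibitor gene.

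The remaining lists had 0 to 3 genes with a member. Appendage patterning had 3 of 20, all transcription factor genes (bab2 242, odd 187, sob 117) at 33.4 per Mb, and tracheal regulators 2 of 13 (hry 153, esg 118), or 15.4%, but 7.69% ± 0 in the replicates. Nervous system regulators had 2 of 19 (sna 203 and esg again), and temporal neuroblast factors 2 of 14 (chinmo 160, slp2 137). The GATA factor gene srp had 2 members (strongest 381) as 1 of 7 genes of its list. Cuticle protein genes had 3 of 39 (Cpr51A 331, Cpr72Ea 326, Cpr62Bc 132). Hox genes had 1 of 8 (Dfd 143), eye determination 1 of 15 (Optix 177), Notch 1 of 15 (the ligand gene Ser, 131, 6.67%, with 13.3% ± 6.67 in the replicates) and EGFR 1 of 15 (aop, the repressor Yan, 308). The members given for odd, sna, Dfd and chinmo lay 12577, 12098, 26993 and 7806 bp from those starts, with a noncoding start nearer. In the tracheal, temporal neuroblast, Hox and Notch lists no gene had a member found in all 3 replicates. Muscle regulators had 0 of 16 in the IDR list, but 6.25% ± 6.25 in the replicates. Neuronal cell-surface proteins had 0 of 38 over 104.8 kb of eligible sequence, and 0 in every replicate. Each list with a member exceeded 2.72%, but in a list of 25 genes or fewer 1 gene with a member is enough for that. For such lists the comparison could not have gone the other way once a gene had a member. Genes differ in how much eligible sequence they have. Neighbouring summits, such as the pair by upd3 199 bp apart, count separately in the densities per Mb. Per Mb, the appendage, Hox, nervous system, eye and EGFR lists and both lists with 0 members were below the 45.3 of all members.

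The bases at the summits were rich in A and T. Within 100 bp of the summit, members had 34.8% GC, other IDR peaks 35.0%, and 67294 windows of 201 bp tiled over the eligible sequence 40.9%. The replicates gave 35.4% ± 0.634 for members and 35.3% ± 0.576 for other peaks, a difference of 0.115 ± 0.0606 points (exact permutation test, p = 0.25), smaller than the spread of either. Along the members, GC was 32.0% in the 25 bp after the summit and 46.1% at its edge of 400 bp upstream. Other IDR peaks had 33.3% and 45.1% there. Annotated transposable elements covered 5.93% of the arms and held 1 member summit (0.163%) and 16 other summits (0.272%).

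**Figure D5:**
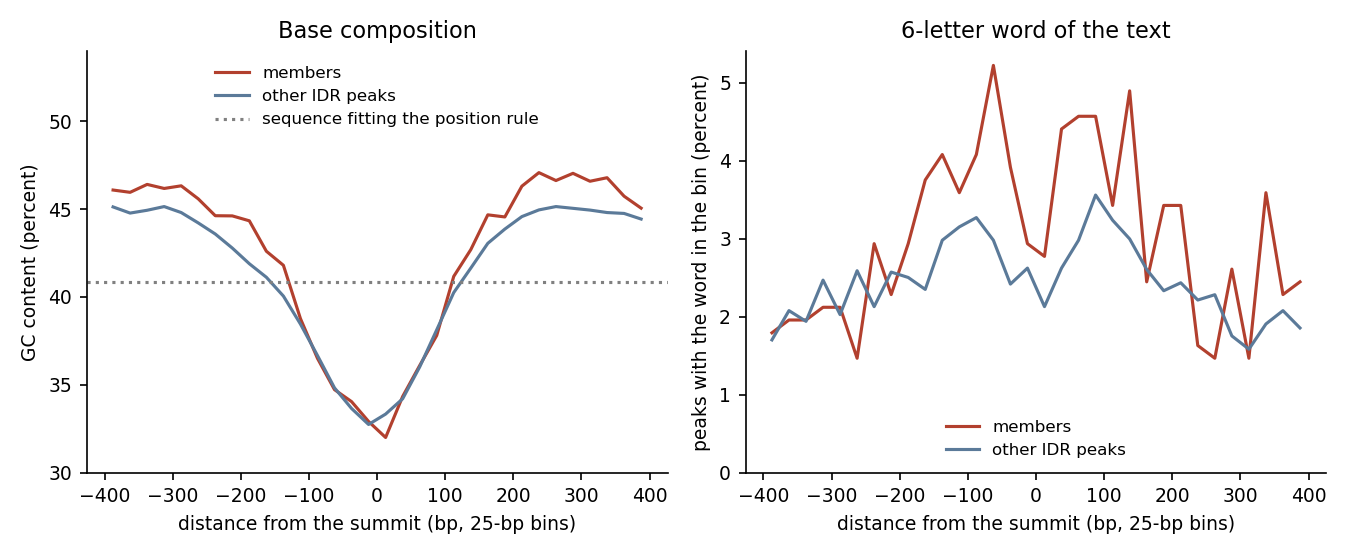
Left, GC content in 25-bp bins around the summits of members and of other IDR peaks, with a dotted line at the 40.9% of the eligible sequence. Right, percentage of peaks with AGTGCA or its complement starting in each bin, which was 5.22% of members and 2.98% of other peaks in the bin 51 to 75 bp before the summit.

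Of 30 known binding words searched on both strands within 100 bp of the summit, those bound by GAGA factor, a chromatin protein, were found at fewer members than other peaks in 3 of 3 replicates. GAGAG occurred at 116 members (18.9%), against 23.7% of other IDR peaks and 19.98% of the eligible windows. The differences from other peaks were −5.00, −3.78 and −6.38 points in the replicates (mean −5.05 ± 1.30, exact permutation test, p = 0.25, adjusted 0.3 over the 30 words), and in the IDR list −4.75, but −2.03 within 50 bp. The longer GAGAGAG, which contains it, occurred at 8 members (1.31%), against 4.89% of other peaks and 2.12% of eligible windows. The nuclear receptor half-site AGGTCA stood at 1.79% of members, 3.88% of other peaks and 4.68% of eligible windows, and the Forkhead word TGTTTAC at 2.61%, 4.60% and 3.79%. The run AAAAAA was at 47.5%, 51.6% and 35.2%, with replicate differences from other peaks of −4.24 ± 1.03 points.

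The GATA word AGATAA ran the other way, at 108 members (17.6%), against 14.7% of other peaks and 10.8% of eligible windows, with replicate differences from other peaks of 1.38 ± 0.427 points. CAAGTG, the NK-2 class word, was at 14.5%, 11.9% and 13.2%, with larger and steadier replicate differences of 1.87 ± 0.146 points. The homeodomain core TAATTA was at 20.4%, 17.9% and 15.4%, with replicate differences of 1.18 ± 1.18 points. The AP-1 word TGANTCA was at 6.04%, 4.58% and 3.75%, and the AT-rich AATATT at 30.7%, 29.5% and 19.0%. TTATGAAAT, a word tied to Spalt in early work, was found at 9 members (1.47%), 1.01% of other peaks and 0.856% of eligible windows. Summits are poorer in GC than the eligible windows, and its part in these shares was not tested.

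A search of all 6-letter words in at least 5% of members found GGGACA with the largest ratio to other IDR peaks (1.89). It occurred at 5.22% of members, 2.76% of other peaks and 5.16% of eligible windows, so members had it about as often as the windows. GATCGA followed with a ratio of 1.81 (7.18%, 3.97% and 5.07%), and the tenth in order, CATAAG, had 1.51 (12.7%, 8.41% and 7.60%). Against the eligible windows, a comparison added after values were seen, GTGCAC led with 12.1% of members, 8.29% of other peaks and 4.34% of windows. AGTGTA followed with 19.3%, 15.3% and 7.53%, and AGTGCA, which overlaps GTGCAC by 5 letters, had 27.6%, 20.1% and 13.1%. The AGTGCA share was 6.98 ± 0.593 points above that of other peaks in the replicates. It was highest on both sides of the summit, away from the centre, where GC was lowest.

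AGTGCA recurred within a longer word. Of the 10-letter words in at least 2.5% of members, also examined after values were seen, TCTCAGTGCA stood furthest above the eligible windows. It occurred at 19 members (3.10%), 69 other IDR peaks (1.18%) and 145 eligible windows (0.216%), with ratios of 2.64 and 14.4. The replicates gave 2.504% ± 0.426 for members and 1.06% ± 0.0425 for other peaks, a difference of 1.45 ± 0.468 points. Of the 19 members, 8 were on 3L, where 219 of all 613 members lay, and no window overlapped another. The next words, ACTGAGAGAA (18 members, 2.94%, against 1.72% and 0.218%) and CACTGAGAGA (16, 2.61%, against 1.65% and 0.199%), continue the complement of the first, TGCACTGAGA. The strongest 5 members with TCTCAGTGCA that all 3 replicates hold, on the same 4 arms as above, are shown as 70 bases of the RefSeq Release 6 genome on the strand that reads the word, which is in capitals.
lncRNA:CR45937 (chr3L:18236073-18236142, plus strand): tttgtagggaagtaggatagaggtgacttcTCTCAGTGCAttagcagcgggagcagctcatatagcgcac
lncRNA:CR45392 (chr3L:18079844-18079913, plus strand): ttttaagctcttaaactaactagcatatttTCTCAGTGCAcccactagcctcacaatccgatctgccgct
srp (chr3R:15984646-15984715, plus strand): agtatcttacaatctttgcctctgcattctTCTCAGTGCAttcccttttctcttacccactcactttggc
lncRNA:CR45644 (chr3R:21859580-21859649, minus strand): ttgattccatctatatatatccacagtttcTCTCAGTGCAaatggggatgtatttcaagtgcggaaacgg
CG7557 (chr3L:11447564-11447633, plus strand): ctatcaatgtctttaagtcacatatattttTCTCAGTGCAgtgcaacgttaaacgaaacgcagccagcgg
The word lay 91 bp from the summit by lncRNA:CR45937 (signal value 508, ranks 575, 482 and 684), 2 bp by lncRNA:CR45392 (422, ranks 646, 723 and 3134), 88 bp by srp (381), 82 bp by lncRNA:CR45644 (341) and 21 bp by CG7557 (214). At lncRNA:CR45392 replicate 3 ranked far below the others, and at lncRNA:CR45937 all 3 were alike. The 5 leading long words also included the AT-rich AATATTAAAT (20 members, 3.26%, against 1.11% of other peaks and 0.701% of eligible windows). With it came AAATATTAAA (24, 3.915%, against 1.69% and 0.930%). Members with any of the 5 (55, or 8.97%, against 4.496% of other peaks and 1.64% of eligible windows) had a median signal value of 181, against 178 for the rest. As the 5 words were picked from these same members, their joint share is a description.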

How the data were processed

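Positions come from narrowPeak lists on dm6 that the authors deposited, 1 for each of 3 biological replicates (30000 entries each) and the IDR list (6485). Per the deposited notes, each replicate list was made from its alignment and a shared control alignment, and the IDR list from the replicate lists and a pooled list. Which aligner and peak caller made them is not given in the sources used. The signal value is the authors' score of a peak, on a scale no source states, and it only ranked peaks within a list. Read totals were not used, so the depth is unknown and no interval is given. The dm3 and pooled lists are not used here.

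A summit is the peak start plus its deposited offset, given 1-based. Genes were those of Ensembl release 115 (BDGP 6.54, 18164 genes, 5809 transposable elements left out). Eligible sequence is every base that fits the position rule. Replicates were compared by their best 6485 peaks. Differences were tested by exact two-sided sign-flip permutation over replicates, with Benjamini-Hochberg adjustment over motifs. When all replicates share a sign, this exact permutation test gives the same result whatever their spread. Its p-values thus concern only agreement between replicates, mainly in sign, and do not measure their spread. Scripts used Python 3.11.15, numpy 2.4.6, pandas 2.3.3, statsmodels 0.14.6 and matplotlib 3.10.9, and the classification was tested on simulated data. Gene list symbols were matched through synonyms in 8 cases, and 7 unmatched ones are not analysed here.

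Named were the 20 strongest members, the 10 gaps with most members, those nearest to the bounds, up to 4 genes per list, 10 sequences and leading 6-letter words. Beyond this rule, every gene with a member in the growth and ecdysone lists is named. Gaps, runs, arms, long words and the salr stretch were described after values were seen. The members and lists were chosen with earlier results of these data known. Alternatives were protein-coding genes alone, distance to gene edges, other matching distances and windows, the 3242 strongest peaks and sets without each replicate in turn.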

Additional observations from a re-analysis of the deposited data

How the results depend on the processing

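The number of members, 613, was 600 with protein-coding genes alone and 588 by gene edges. The smaller sets were scaled to 6485 peaks, which gave 530.1 for the 3242 strongest peaks and 551.4 to 574.3 without single replicates, where 344 of 4046, 354 of 4102 and 386 of 4359 peaks were members. The density ratio to all IDR peaks, 0.935, was 1.04 with protein-coding genes alone, 0.898 by gene edges, 0.808 among the 3242 strongest, 0.957 with summits within 500 bp counted once and 0.841 to 0.876 without single replicates. The support difference, −3.77 points, was −1.22 with all list entries and −1.54 with protein-coding genes alone, and −4.88 to −2.88 without single replicates. The median signal difference, −19.5, was −10.3 with protein-coding genes alone and −16.0 to −11.5 without single replicates. The GAGAG difference, −4.75 points, was −2.03 within 50 bp and −6.08 to −5.36 without single replicates. The ratio of 3L to other arms, 2.05, was 1.54 with protein-coding genes alone, 1.90 with summits counted once, 2.31 among the 3242 strongest, 1.62 without runs of 10 or more members and 1.92 to 2.16 without single replicates. The alternatives for 3L, and counting neighbouring summits once, were chosen after seeing the data. Leaving out a replicate kept IDR peaks found in both others, which leaves fewer and stronger peaks by construction. Leaving out the runs of 10 or more members, most of them on 3L, lowers the 3L ratio by construction. For the other moves the cause was not tested. No paired analysis was possible because there is 1 group. Depth is unknown, so peaks missing from a list may lie below its limit.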

Other observations

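The start of a tRNA gene was the nearest one for 21 members (3.43%), while such starts were nearest for 1.37% of the eligible bases, a comparison made after values were seen and with no test. These members are not all separate sites, as 5 of them lay in a single run from hng3 to CG13898 on 3L.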
